A study of Mus musculus with 3 samples.

Results

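Interferon-stimulated genes were followed in the livers of wild-type mice and of TMX-/- mice (called TMX-null here), which lack a membrane-anchored relative of thioredoxin that resides in the endoplasmic reticulum. The set was a list of 37 genes by name: transcription factors of the interferon response, sensors of foreign nucleic acid, antiviral effectors, genes of the ISG15 system and interferon-inducible GTPases. Of these, 31 were matched to a row of the deposited table through its annotation symbol or that symbol's current name, and 28 held a value on all 3 arrays, out of 10179 named genes that did. Rows for Oas3, Ifit1 and Ifit2 were blank on every array. Oas1g, Isg15, Gbp3, Igtp, Ifi47 and Xaf1 were matched to no named row and are not analysed here. Irf9 is written Isgf3g, as in the annotation.

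All mice were female C57BL/6. Injury was induced by an intraperitoneal dose of 3 ng lipopolysaccharide (LPS), which comes from the outer membrane of bacteria, together with 10 mg D-galactosamine (GalN), which depletes hepatocytes of uridine nucleotides and makes them sensitive to LPS, and livers were taken at 24 h. The first array held liver of wild-type mice after LPS/GalN, the second liver of untreated TMX-null mice and the third liver of TMX-null mice after LPS/GalN. Each was labelled with Cy3 and hybridised against Cy5-labelled liver RNA of untreated wild-type mice, so every array shared that reference and no dyes were exchanged. With 1 array per group there is no replicate and no test, and neither the number of mice behind a channel nor the construction of the null allele is given in the labels. Values are log2 ratios of the authors' table, and genes are counted as higher or lower past a ratio of 2-fold (log2 of 1).

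Type I and type II interferons bind their receptors at the cell surface and act through JAK kinases. Type I interferon leads to a complex with STAT2 and IRF9 that binds a DNA element called the ISRE, while the response to type II interferon runs mainly through an element called GAS. LPS can start the loop by way of TLR4 and the adaptor TRIF, which lead to IRF3 and interferon beta, and macrophages are a main source in liver. The products block viral RNA, mark proteins with ISG15, or attack the vacuoles that hold microbes.

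The targeted gene Tmx1 stood at -2.96 in untreated and -3.88 in treated TMX-null liver, and at 0.59 in treated wild-type liver. The direction of the deposited ratio is not stated. It is read here as sample over reference because Tmx1 then lies low in both TMX-null livers, and with the opposite numerator every "higher" below would read "lower". The SD over all genes was 0.48 on the treated wild-type, 0.40 on the untreated TMX-null and 1.04 on the treated TMX-null array, so a fixed fold is passed more often on the last. The only measure of error is the SD of a single probe over 81 genes with 2 probes, which was 0.42, 0.42 and 0.76 on these arrays. Taken between arrays, it was 0.67 for treated against untreated TMX-null liver and 0.59 for the 2 treated livers.

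The promoters are shown first, because members that lie high together can be compared at the element the pathway acts through. An ISRE-type motif was searched on both strands as GAAA, any 2 bases, then GAAA again (on the opposite strand TTTC, any 2 bases, TTTC), overlaps allowed, in windows from 250 bases before to 50 bases after each RefSeq start (assembly GRCm38.p6). A window was at hand for 29 of the 37 members, 16 of which held a match in any window (55.2%), against 3.99% of all 27025 genes and 3.44% of their 32851 windows. Each line below gives the 160 bases before the start, read 5′ to 3′ on the gene's own strand, with matches in capitals. The first 5 genes had a match before the start and stood at least 2-fold higher in treated TMX-null than in treated wild-type liver. With arrays scaled to equal spread, an alternative described with the counts, Oas1a and Gbp2 were not (0.21 and 0.17). Oasl1 stood as high with no match, and Bst2 had matches but no such difference.
Ifit3 (chr19:34583369-34583528, plus strand): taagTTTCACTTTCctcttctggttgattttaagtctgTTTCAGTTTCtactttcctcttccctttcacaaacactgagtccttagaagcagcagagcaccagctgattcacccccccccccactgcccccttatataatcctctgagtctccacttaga
Rsad2 (chr12:26456453-26456612, minus strand): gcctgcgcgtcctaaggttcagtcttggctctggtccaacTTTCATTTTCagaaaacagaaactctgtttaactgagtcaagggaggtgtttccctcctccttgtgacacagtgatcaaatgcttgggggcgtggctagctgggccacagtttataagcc
Oas1a (chr5:120907526-120907685, minus strand): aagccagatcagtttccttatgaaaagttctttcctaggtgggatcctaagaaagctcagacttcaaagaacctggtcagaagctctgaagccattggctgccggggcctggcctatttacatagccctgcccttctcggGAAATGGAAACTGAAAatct
Irgm1 (chr11:48871421-48871580, minus strand): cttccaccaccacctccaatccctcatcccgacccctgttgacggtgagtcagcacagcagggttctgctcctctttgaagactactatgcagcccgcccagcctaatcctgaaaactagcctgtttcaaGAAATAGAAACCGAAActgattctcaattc
Gbp2 (chr3:142620503-142620662, plus strand): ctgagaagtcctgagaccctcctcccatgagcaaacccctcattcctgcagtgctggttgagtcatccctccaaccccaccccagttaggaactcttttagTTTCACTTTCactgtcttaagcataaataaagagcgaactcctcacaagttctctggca
Oasl1 (chr5:114923080-114923239, plus strand): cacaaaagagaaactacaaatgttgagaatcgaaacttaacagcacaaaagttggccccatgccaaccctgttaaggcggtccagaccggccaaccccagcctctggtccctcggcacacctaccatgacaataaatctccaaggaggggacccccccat
Bst2 (chr8:71537473-71537632, minus strand): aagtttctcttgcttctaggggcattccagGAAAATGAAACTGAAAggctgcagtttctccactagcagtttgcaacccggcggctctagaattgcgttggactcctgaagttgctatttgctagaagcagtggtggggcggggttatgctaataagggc
Ifit3 held 2 separate matches, while those of Oas1a, Irgm1 and Bst2 were 2 overlapping matches each. Among the members with a window and 3 values, 6 of 11 that were 2-fold higher in treated TMX-null than in treated wild-type liver held the motif in any window, and 4 of 9 that were not. A GAS-type motif, searched as TTCNNNGAA, which reads the same on both strands and can overlap the ISRE-type match, as it does in Bst2, was found in 3 of these 11 and in 4 of these 9, against 9.55% of all genes and 8.30% of all windows. Irf8, which encodes a myeloid transcription factor, held 2 such matches and Irf1 held 1. A match is a run of letters and was not tested as a binding site.

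**Figure D1:**
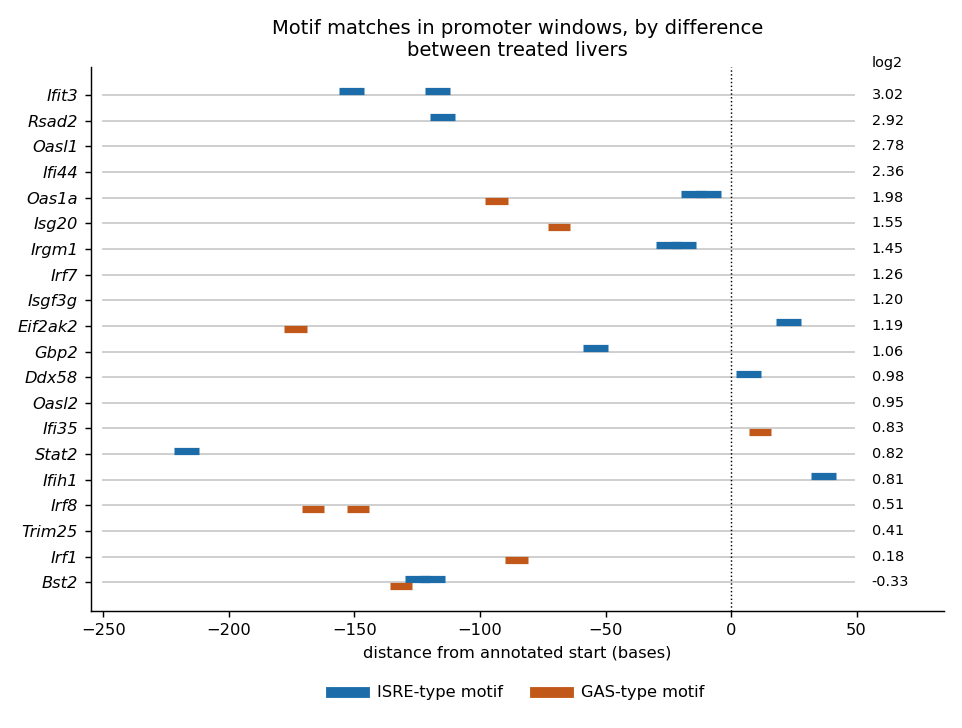
Matches to the ISRE-type motif (blue) and the GAS-type motif (orange) along the promoter windows of the 20 members with a window and 3 values, by distance from the annotated start in bases. Genes are ordered by the log2 difference between treated TMX-null and treated wild-type liver, printed at the right, from Ifit3 (3.02) to Bst2 (-0.33), and matches occur at both ends of the order.

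In outline, 14 of the 28 interferon-stimulated genes stood past 2-fold in treated TMX-null liver, against 2 in treated wild-type and 1 in untreated TMX-null liver. In treated wild-type liver 2 of the 28 were at least 2-fold higher (2.80% of all genes were) and 0 lower (1.75% of all genes), with a median of -0.13. In the untreated TMX-null liver 1 was higher (1.78% of all genes) and 0 lower (0.835%), and the median was -0.01. In treated TMX-null liver 14 were higher (13.6% of all genes) and 0 lower (13.2%), with a median of 1.08. The median of all genes was 0.00 on each array.

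Differences between arrays cancel the reference, if it was the same RNA on each. Treated against untreated TMX-null liver, 15 of the 28 were at least 2-fold higher (11.4% of all genes were) and 0 lower (12.1%), with a median of 1.15, where that of all genes was near 0. Between the treated livers, TMX-null against wild-type, 17 were higher (9.64% of all genes) and 0 lower (10.6%), with a median of 1.20 against 0.01. These comparisons share the treated TMX-null array and are not independent of each other. As an alternative, each array was scaled to equal spread, divided by its SD over genes and multiplied by the mean SD. This narrowed the treated TMX-null array and widened the others. Whether the wider spread of that array belongs to the response was not tested. With this scaling, each of the 3 counts that use the treated TMX-null array came to 9 of 28. Of all genes, 4.97% were then higher against the reference, 6.56% against untreated TMX-null liver and 4.38% against treated wild-type liver. In untreated TMX-null liver 2 were then higher (5.90% of all genes) and 1 lower (4.52%).

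At 3-fold, 9 were higher in treated than in untreated TMX-null liver (4.23% of all genes) and 7 between the treated livers (3.12%), with 0 in treated wild-type (0.501%) and 0 in untreated TMX-null liver (0.206%). At 1.5-fold, 4 were lower in treated wild-type liver (8.17% of all genes), and in untreated TMX-null liver 3 were higher (6.98%) and 1 lower (5.56%). Were the ratios natural logarithms, 2 would be 2-fold lower in treated wild-type liver (5.24% of all genes), and in untreated TMX-null liver 2 would be higher (4.75%) and 1 lower (3.44%).

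**Figure D2:**
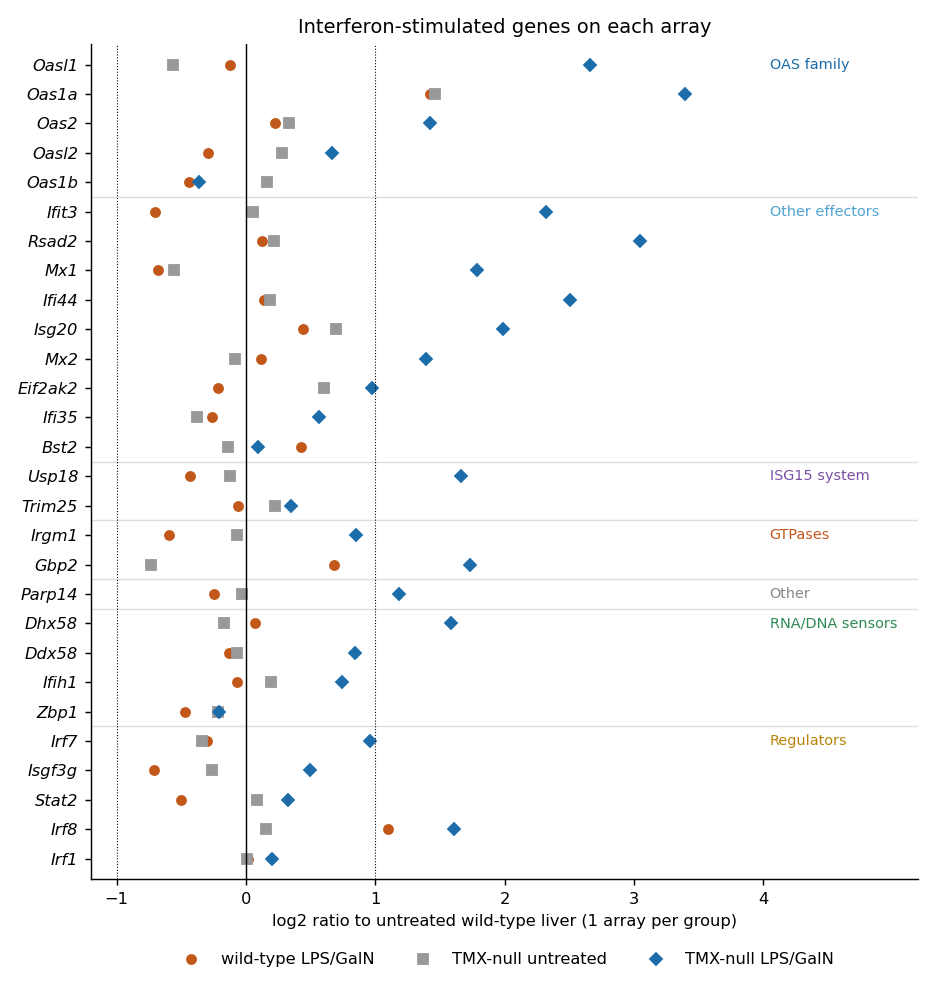
Log2 ratio to untreated wild-type liver of the 28 measured members on each array (x axis), by role and then by the difference between the treated livers. Dotted lines mark 2-fold. Treated TMX-null liver (diamonds) is right of the line in 14 genes, while treated wild-type liver (circles) passes it in Oas1a and Irf8 and untreated TMX-null liver (squares) in Oas1a.

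The 2′-5′ oligoadenylate synthetase (OAS) family makes the small molecule that activates the ribonuclease RNase L. Oasl1, an OAS-like protein without that activity, stood at -0.12 in treated wild-type, -0.57 in untreated TMX-null and 2.66 in treated TMX-null liver. It lay high on the last array alone, 6.89-fold above treated wild-type and 9.38-fold above untreated TMX-null liver, where it ranked 25 from the highest of 10179 genes. Oas1a stood at 1.42, 1.46 and 3.40 on the same arrays. It was thus above the reference in all 3 livers, and its difference between treated and untreated TMX-null liver (1.93) was not kept when arrays were scaled to equal spread, where it was -0.23. Its difference between the treated livers was 1.98, and 0.21 with that scaling. Its probe may not separate it from near-identical copies such as Oas1g.

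Oas2 stood at 0.22, 0.33 and 1.42, with the treated TMX-null value the only one past 2-fold, which at equal spread was 0.88 and under it. Oasl2, the neighbour of Oasl1 on chromosome 5 with 0 protein-coding genes between them, stood at -0.29, 0.28 and 0.66. Its difference between the treated livers was 0.95, against 2.78 for Oasl1. Oas1b, which is truncated in common laboratory strains such as C57BL/6, stood at -0.44, 0.16 and -0.37 and passed 2-fold nowhere. Only its value in treated wild-type liver lay past the SD of a probe, and narrowly. Of the 5 measured OAS genes, 3 were at least 2-fold higher in treated TMX-null than in treated wild-type liver (9.64% of all genes were), and 1, Oasl1, at equal spread (4.38%).

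The highest differences between the treated livers were among the other antiviral effectors. Ifit3, a member of the family that binds foreign RNA ends and blocks their translation, stood at -0.70 in treated wild-type, 0.05 in untreated TMX-null and 2.32 in treated TMX-null liver. Its difference between the treated livers was 3.02 (8.12-fold), rank 30 of all genes, and both livers contributed to it, since it lay among the lowest genes of treated wild-type liver (rank 9657 of 10179). Rsad2, which encodes the radical enzyme viperin that makes a chain-terminating nucleotide, stood at 0.13, 0.22 and 3.05. It was near the reference in the first 2 livers and 7.58-fold higher in treated TMX-null than in treated wild-type liver (2.92). Its neighbour on chromosome 12, Cmpk2, a mitochondrial nucleotide kinase gene outside the list of 37, stood at -0.12, -0.15 and 2.50.

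Mx1 and Mx2 belong to a family of dynamin-like GTPases that trap viral nucleoproteins, and Mx1 makes no working protein in C57BL/6. Whether Mx2 makes one cannot be read from RNA ratios. Mx1 stood at -0.68 in treated wild-type, -0.55 in untreated TMX-null and 1.79 in treated TMX-null liver. Mx2 stood at 0.11, -0.08 and 1.39. Both were past 2-fold in treated TMX-null liver alone, with differences of 2.46 and 1.28 between the treated livers. At equal spread Mx1 kept both calls, while Mx2 was under 2-fold in each (0.86 and 0.71). Ifi44, a cytoplasmic protein induced by interferon, stood at 0.14, 0.19 and 2.51, which put it 5.15-fold higher in the treated TMX-null than in the treated wild-type liver. Isg20, an exonuclease that degrades RNA, stood at 0.44, 0.70 and 1.99. Its order was the same as that of most effectors, but the other livers were also above the reference by more than the SD of a probe, and its difference between the treated livers went from 1.55 to 0.64 at equal spread.

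Eif2ak2, which encodes the RNA-activated kinase PKR, stood at -0.22, 0.60 and 0.97. It was 2.28-fold higher in treated TMX-null than in treated wild-type liver (1.19, and 0.89 at equal spread), but its difference between the TMX-null livers was 0.37, less than the SD of a probe, and -0.35 with arrays scaled to equal spread. Ifi35 stood at -0.27, -0.38 and 0.56 and passed 2-fold nowhere. Bst2, which encodes tetherin, a membrane protein that holds budding viruses, stood at 0.43, -0.14 and 0.10. It was the only one of the 28 members below 0 between the treated livers (-0.33), by less than the SD of a probe.

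The ISG15 system attaches and removes the ubiquitin-like protein ISG15. Usp18, which removes it and also restrains the type I interferon receptor, stood at -0.43, -0.12 and 1.66. It was high in treated TMX-null liver alone, 4.27-fold above treated wild-type liver. Trim25, a ubiquitin ligase that activates the sensor RIG-I, stood at -0.06, 0.22 and 0.35, all within the SD of a probe. Parp14, an ADP-ribosyltransferase, stood at -0.25, -0.03 and 1.19, the last of which was 0.73 at equal spread. Its difference between the treated livers was 1.44, and still past 2-fold at equal spread (1.07).

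Mx1 and Mx2 are counted here with the antiviral effectors. Of the other interferon-inducible GTPases of the list, which act on vacuoles that hold microbes, 2 of 5 were measured. Gbp2, a guanylate-binding protein, stood at 0.68 in treated wild-type, -0.73 in untreated TMX-null and 1.73 in treated TMX-null liver. Both treated livers were above the untreated one, and the difference within the TMX-null genotype (2.47, 5.52-fold) was larger than that between the treated livers (1.06, and 0.17 with arrays scaled to equal spread). Irgm1, an immunity-related GTPase, stood at -0.60, -0.07 and 0.85. It lay on opposite sides of the reference in the treated livers, with a difference of 1.45 (1.32 with arrays scaled to equal spread).

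Of the 4 sensors of nucleic acid, 3 stood above the reference on the treated TMX-null array. Dhx58, which encodes LGP2, a regulator of the RNA sensors, stood at 0.07, -0.17 and 1.59. It was the only one of the 4 past 2-fold higher there (13.6% of all genes were), a call lost at equal spread (0.98). Ddx58, which encodes the RNA sensor RIG-I, stood at -0.13, -0.07 and 0.84, just under 2-fold between the treated livers (0.98). Ifih1, which encodes the RNA sensor MDA5, stood at -0.07, 0.19 and 0.74. Zbp1, a sensor of left-handed nucleic acid that can start necroptosis, did not share this order, with values of -0.47, -0.21 and -0.21.

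Of the 5 transcription factors, Irf7 and Isgf3g were at least 2-fold higher in treated TMX-null than in treated wild-type liver. That was 2 of 5, where 9.64% of all genes were higher, and 1, Isgf3g, at equal spread, where 4.38% were. Irf7, the factor that amplifies type I interferon production, stood at -0.30 in treated wild-type, -0.34 in untreated TMX-null and 0.96 in treated TMX-null liver. Isgf3g, the DNA-binding part of the complex formed after type I interferon, stood at -0.71, -0.26 and 0.49, and its partner Stat2 at -0.50, 0.09 and 0.32. All 3 were lowest or nearly lowest in treated wild-type liver, and the differences between the treated livers were 1.26, 1.20 and 0.82. Irf1, a primary target of type II interferon, stood at 0.01, 0.00 and 0.20 and was within the SD of a probe of the reference in every liver. Irf8, a factor of the monocyte and dendritic cell lineages, stood at 1.10, 0.15 and 1.61. It was past 2-fold in both treated livers, in the TMX-null one just short of it at equal spread, and the difference between them was 0.51, less than the SD of a probe, and -0.46 with arrays scaled to equal spread.

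Compared by role between the 2 treated livers, 10 of 14 measured antiviral effectors were at least 2-fold higher in the TMX-null liver, with a median difference of 1.41. Of the regulators and sensors together, 3 of 9 were, with a median of 0.82, and both measured GTPases were. All genes had a median of 0.01, and 9.64% of them were 2-fold higher. With arrays scaled to equal spread, 5 of 14 effectors were 2-fold higher (median 0.75), 1 of 9 regulators and sensors (median 0.70) and 1 of 2 GTPases, Irgm1, where 4.38% of all genes were. The 5 effectors were Oasl1, Rsad2, Ifit3, Mx1 and Ifi44. Mx1 and Mx2, which encode GTPases too, were counted as effectors throughout, so the counts by role depend on that choice. Whether the roles differ from each other was not tested.

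**Figure D3:**
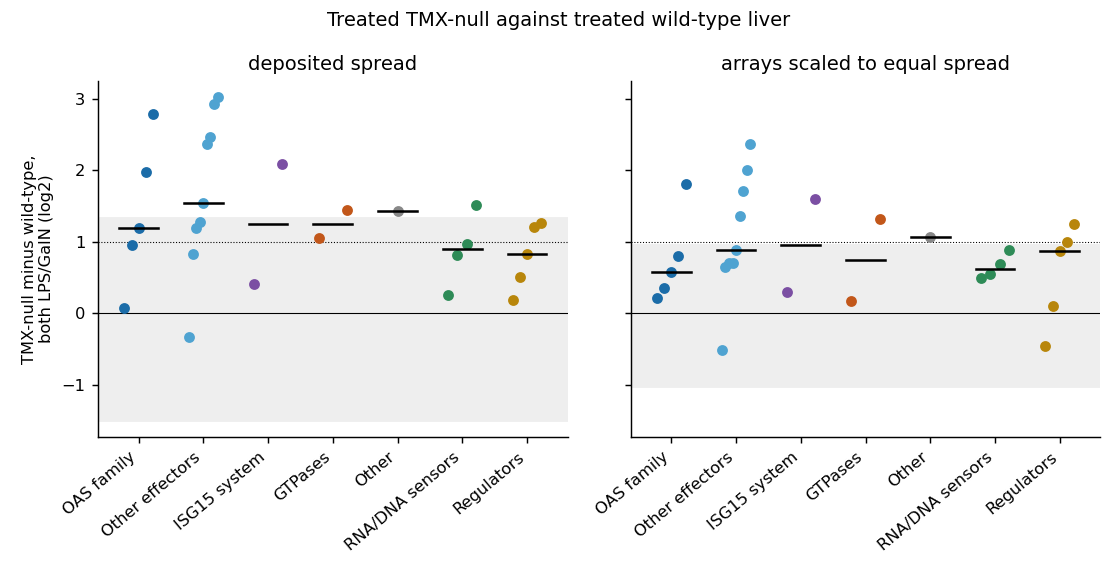
Difference between treated TMX-null and treated wild-type liver (log2, y axis) for each measured member, by role, with the deposited spread (left) and with arrays scaled to equal spread (right). Bars are medians of a role, the grey band holds the central 90% of all genes and the dotted line marks 2-fold. The number above that line is 17 on the left and 9 on the right.

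Set side by side, the 2 genotypes gave different values for the response to LPS/GalN, each treated liver being compared with the untreated liver of its own genotype. For Oasl1 the response was -0.12 in wild-type and 3.23 in TMX-null liver. For Rsad2 it was 0.13 and 2.83, for Ifi44 0.14 and 2.32, and for Dhx58 0.07 and 1.75. These genes were near 0 in wild-type liver and high in TMX-null liver. Irf8 (1.10 and 1.46) and Oas1a (1.42 and 1.93) were past 2-fold in both, but at equal spread the TMX-null response was 0.75 for Irf8 and -0.23 for Oas1a, so neither kept that call. For 5 members the wild-type response lay below 0 and the TMX-null response above it, each by more than the SD of a probe, as in 1.37% of all genes. Oas1b (-0.44 and -0.53) was the only member with a TMX-null response below 0. At equal spread Eif2ak2 (-0.35), Oas1a (-0.23), Trim25 (-0.14) and Oasl2 (-0.04) were below 0 as well. The wild-type response was measured against the reference channel itself and the TMX-null response between arrays, so dye effects enter the first and not the second.

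**Figure D4:**
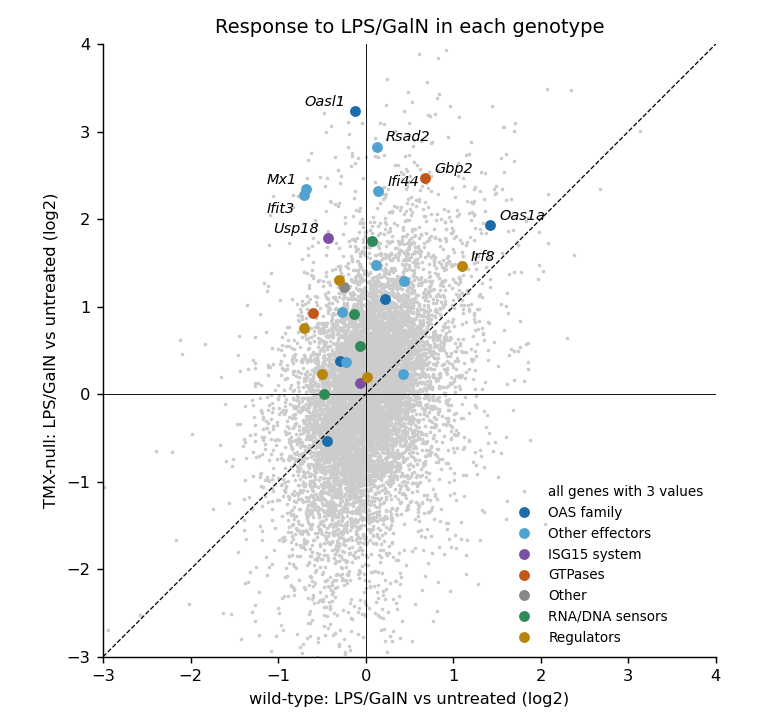
Response to LPS/GalN in wild-type liver (x axis, log2) and in TMX-null liver (y axis, log2) for all 10179 genes (grey) and the measured members (coloured by role). The dashed line marks equal responses. The axes run from -3 to 4 and leave out 73 genes, none of them members. Members such as Oasl1 and Rsad2 lie near 0 on the x axis and at 3.23 and 2.83 on the y axis.

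The rest of the interferon pathway was taken from lists of 90 genes. Of 11 ligands 6 had a row. Ifnb1, interferon beta, held a value on the treated TMX-null array alone, at 2.03, and so did Ifng, interferon gamma, at -0.20. The rule behind blank cells is not given in the sources used here, so a blank is not a low level. Ifna2 stood at -0.27 in treated wild-type, -0.14 in untreated TMX-null and -2.19 in treated TMX-null liver, the opposite order to most members. Ifne stood at 0.92, -0.32 and -0.59, and Ifnl3 at -0.80, -0.16 and -0.61. Between the treated livers Ifna2 differed by -1.92, Ifne by -1.51 and Ifnl3 by 0.19. At equal spread these differences were -0.99, -1.58 and 0.68.

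Upstream, 4 of 14 measured genes of the induction pathway were 2-fold higher (9.64% of all genes) and 1 lower (10.6%) in treated TMX-null than in treated wild-type liver. At equal spread 1, Cd14, was higher (4.38% of all genes) and 0 lower. Cd14, the LPS co-receptor, stood at 0.49, 0.01 and 3.46. Mavs, the mitochondrial adaptor of the RNA sensors, was the lower one, at -0.51, -0.27 and -1.58. Traf3, an adaptor of the kinases that activate IRF3, and Irf5, a factor of inflammatory cytokine genes, differed by 1.10 and 1.18 between the treated livers. The fourth was Myd88, the other adaptor of TLR4 signalling, which lay just past 2-fold and is named after its value was seen. Irf3 itself stood at -0.11, -0.29 and -0.52.

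Of the receptors and the JAK-STAT proteins, 3 of 10 were 2-fold higher in treated TMX-null than in treated wild-type liver (9.64% of all genes) and 0 lower (10.6%). These were Ifngr1 (1.36), a chain of the type II receptor, Ifnar2 (1.30), a chain of the type I receptor, and Il10rb (1.27), a chain shared by the receptors for type III interferon and interleukin 10. At equal spread Ifnar2 alone was (4.38% of all genes were), with Ifngr1 at 0.76 and Il10rb at 0.28. Ifngr2, the second chain of the type II receptor, stood at -0.48, 0.18 and 0.15, a difference of 0.63 between the treated livers. Of 8 negative regulators, Socs1, an inhibitor of JAK kinases, stood at -0.77, 0.47 and 1.31, and Trex1, which degrades cytosolic DNA, at -0.35, 0.21 and 1.18. Both were 2-fold higher between the treated livers (9.64% of all genes), at 2.08 and 1.53, and also at equal spread (4.38%), at 1.83 and 1.19. The other 6 were not. Of these, Irf2 differed by -0.63 and Ptpn11 by 0.88, which was -0.47 at equal spread.

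Of 35 further interferon-stimulated genes measured in both treated livers, 15 were 2-fold higher in the TMX-null one (9.64% of all genes) and 0 lower (10.6%), with a median of 0.89. At equal spread 6 were higher (4.38%) and 0 lower (median 0.58). The chemokine gene Cxcl10 stood at -0.62, 0.12 and 2.88, a difference of 3.50 between the treated livers and the largest of this list. Its relatives Cxcl9 (0.66, 0.28 and 0.35) and Cxcl11 (-0.64, -0.18 and -0.13), which bind the same receptor, differed by -0.31 and 0.52. Cmpk2 (2.62), the DNA-binding protein gene Ifi203 (2.12, and 0.92 at equal spread) and Pml (2.00), which encodes the organiser of a nuclear body, followed. Pml owed part of its difference to a low value in treated wild-type liver, where it stood at -1.21.

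**Figure D5:**
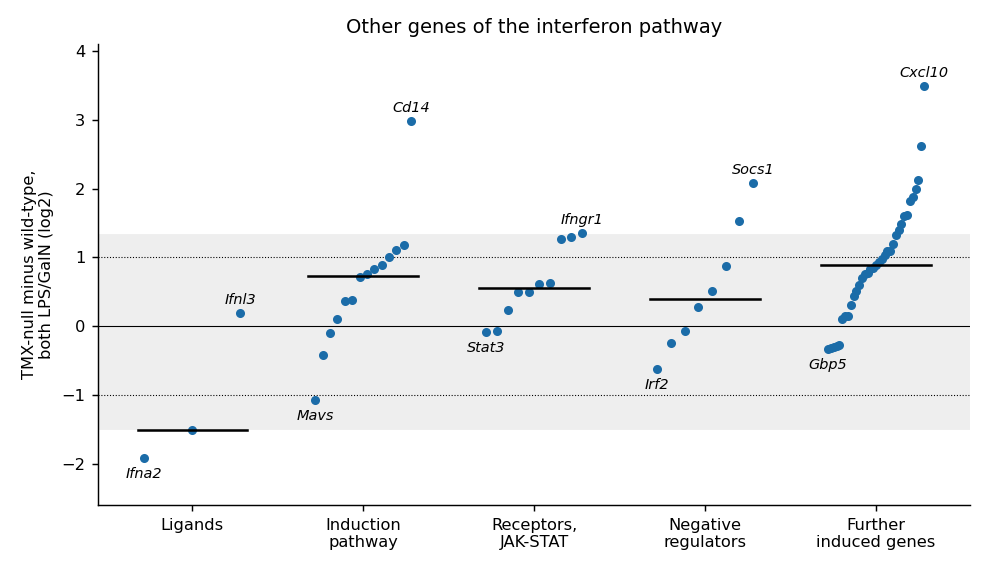
Difference between treated TMX-null and treated wild-type liver (log2, y axis) for the measured genes of 5 pathway lists, with the lowest and highest gene of each named. Bars are medians, the grey band holds the central 90% of all genes and dotted lines mark 2-fold. Cxcl10 (3.50) and Cd14 (2.98) are the highest and Ifna2 (-1.92) the lowest at the deposited spread shown. At equal spread Ifne (-1.58) is the lowest and Ifna2 is at -0.99.

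Interferon-stimulated genes are carried by many cell types, and in whole liver a change in the number of cells of a type cannot be told from a change in RNA per cell. Markers of other cell types also differed between the treated livers, where 9.64% of all genes were 2-fold higher and 10.6% lower. With arrays scaled to equal spread 4.38% of all genes were higher. The share that was lower was not counted, so counts of markers lower at that spread cannot be read against all genes. Of 3 measured monocyte markers 3 were higher in the TMX-null liver, from Ccr2 (2.14) to S100a4 (4.74), and Chil3 and Itgam held a value on that array alone. At equal spread 1 of the 3 was, S100a4 (2.42), and Ccr2 stood at -0.12. Of 5 neutrophil markers 3 were higher and 1, Ly6g (-1.61), lower, against 2 higher and 0 lower at equal spread.

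Of 12 Kupffer cell and macrophage markers 1 was higher, Cd68 (1.64), near the share of all genes, and 0 lower. Their median of 0.16 became -0.68 at equal spread, where 0 were higher and 2 lower, Marco (-1.63) and Vsig4 (-1.51). At the deposited spread, 3 of 10 T and NK cell markers were higher too, with Gzma (1.70) the highest, and 2 of 6 sinusoidal endothelium markers, with Lyve1 (1.58). So were 2 of 5 stellate cell markers, with Acta2 (2.35), and 1 of 3 B cell markers, Cd79b (1.02). At equal spread none of the last 4 lists had a marker past 2-fold higher (4.38% of all genes were), and 3 T and NK cell markers were lower. Of 3 measured plasmacytoid dendritic cell markers 0 were higher under either scaling. Hepatocyte markers had a median of -0.94, with 4 of 11 lower, and of -0.38 with 3 lower at equal spread. The counts lower at equal spread, in this and the other lists, have no share of all genes beside them and show no excess. Single marker genes are named here after their values were seen. The part of these cell types in the members' values was not tested. Ratios give no level, so whether defining markers were at 0 is unknown and the tissue label could not be checked against hepatocyte markers.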

How the data were processed

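RNA from liver was compared on 3 microarrays with 2 colours each. The authors deposited 1 table of signed log ratios, taken here as log2. No base, numerator, image analysis, background correction or normalization is stated (not given in the sources used here). Medians of the authors' deposited log2 values ran from -6.94e-05 to 1.14e-04 per array.

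Of 23473 rows, 16631 had 1 annotation symbol and none had several. Symbols were updated through RefSeq synonyms (3947 rows renamed, 62 kept). Where a gene had more than 1 probe (86 genes), their mean was taken. The median over the 10179 genes with 3 values was subtracted from each array. There were no replicates, hence no tests. Every member was named, and of the pathway lists at most 4 genes each, those farthest from 0 between the treated livers, besides ligands, Irf3 and CXCR3 chemokines. One gene of the lists is not reported here. Members and lists were chosen with earlier results of these data known. Steps were run on simulated data with planted effects free of noise, which checks the arithmetic and not the error of real arrays. Alternatives were centring, spread, log base, probe choice, fold and blanks. Python 3.11.15 and pandas 2.3.3 were used. Depth has no meaning for arrays, and their number limits the precision.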

Additional observations from a re-analysis of the deposited data

Results flagged for a closer look

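For 5 members the response to LPS/GalN had opposite signs in the 2 genotypes, each larger than the SD of a single probe. A wild-type response below 0 with a TMX-null response above it, by the same rule, was found in 1.37% of all genes, which the 5 of 28 members are to be read against. With 1 array per group the difference was not tested. Mx1 stood at -0.68 in wild-type and 2.34 in TMX-null liver, a difference of 3.02. Ifit3 stood at -0.70 and 2.27, a difference of 2.97. Usp18 stood at -0.43 and 1.78, a difference of 2.21. Irgm1 stood at -0.60 and 0.93, a difference of 1.52. Isgf3g stood at -0.71 and 0.76, a difference of 1.47. All 5 lay below the reference in treated wild-type liver by less than 2-fold, and Usp18 passed the SD of a probe there (0.42) narrowly. Against the same reference, untreated TMX-null liver stood at -0.55 for Mx1, nearly as low. It stood at 0.05 for Ifit3, -0.12 for Usp18, -0.07 for Irgm1 and -0.26 for Isgf3g. At equal spread the TMX-null response of Irgm1 was 0.64, under the SD of a probe at the deposited spread (0.67). Dye effects enter the wild-type response and not the TMX-null one.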

How the results depend on the processing

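Counts of members past 2-fold were the same when values were not centred again, when arrays were centred on all their named genes, when the probe farthest from 0 replaced the mean, and when members had to hold 3 values. The share of all genes past the same limit is in brackets. With arrays scaled to equal spread, 9 were higher in treated TMX-null liver (4.97%), 9 against untreated TMX-null liver (6.56%) and 9 against treated wild-type liver (4.38%). In untreated TMX-null liver 2 were then higher (5.90%) and 1 lower (4.52%). Read as natural logarithms, 2 were lower in treated wild-type liver (5.24%), and 2 higher (4.75%) and 1 lower (3.44%) in untreated TMX-null liver. At 1.5-fold, 4 were lower in treated wild-type liver (8.17%), and 3 higher (6.98%) and 1 lower (5.56%) in untreated TMX-null liver. At 3-fold, 0 were higher in treated wild-type (0.501%) and 0 in untreated TMX-null liver (0.206%). At the same fold, 9 were higher in treated against untreated TMX-null liver (4.23%) and 7 between the treated livers (3.12%). Listed for these settings are counts that changed by more than a factor of 1.5, or from or to 0. Smaller changes are left out. The higher counts that use the treated TMX-null array also rose at 1.5-fold and as natural logarithms, and that against the reference fell at 3-fold. Of 700 single values recomputed, 689 kept their sign, and 1 value past 2-fold reversed, that of Oas1a between the TMX-null livers (-0.23 with equal spread). Signal over background is not in the table, so dim genes could not be told from bright ones. No paired analysis was possible because each group has 1 array.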
